A study of Mus musculus with 6 samples.

Results

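The zinc-dependent histone deacetylases (HDACs) were followed in the amygdala of mice fed either of 2 diets, a zinc diet or a control diet. All probe sets whose platform annotation named Hdac1, Hdac2, Hdac3, Hdac4, Hdac5, Hdac6, Hdac7, Hdac8, Hdac9 or Hdac11 were taken, which gave 17 of the 45101 probe sets on the array for all 10 genes, out of 18194 named genes. A probe set is a group of short probes that reads 1 stretch of transcript, usually near its 3′ end. Class I (Hdac1, Hdac2, Hdac3 and Hdac8) had 6 probe sets, and classes II and IV (the other 6 genes) had 11. Hdac10, also of class II, is not a member, and its 2 probe sets lay at log2 levels of 1.18 to 1.59 and 3.52 to 3.66, under the filter used here.

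The animals were 6 male mice of the inbred strain 129S1/SvImJ (S1), which is known for poor fear extinction, aged 8 to 10 weeks. All 6 had undergone fear extinction training and were killed 2 h later, and the labels give no other agent or allele. The 3 zinc diet mice (diet "ZnR" in the labels, replicates 3, 7 and 10) and the 3 control mice (diet "Ctrl" in the labels, replicates 1, 9 and 11) each gave 1 Affymetrix Mouse430_2 array from whole dissected amygdala. The labels do not state the zinc content of either diet, so the zinc diet may have held more zinc than the control diet or less, and higher or lower levels below are relative to the control diet only. No mouse was sampled without extinction training, so these data show levels after training and not a response to it.

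Histone deacetylases remove acetyl groups from lysines of histones and other proteins, and the 4 classes differ in how they do so. The members hold a zinc ion in the active site, whereas the sirtuins of class III use NAD instead. Class I enzymes are mostly nuclear and sit in corepressor complexes. Class IIa enzymes move between nucleus and cytoplasm: phosphorylation by kinases such as CaMK, PKD and SIK lets 14-3-3 proteins bind and hold them outside the nucleus, away from the MEF2 transcription factors they repress. In the brain, HDAC2 is known for limiting synaptic plasticity and memory, and HDAC inhibitors are used experimentally to strengthen extinction memory.

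The arrays had similar distributions, with medians of 4.04 to 4.09 and pairwise correlations of 0.991 to 0.996, so none was a copy of another. All 5 neuronal markers and all 8 amygdala markers (Rspo2, Lmo3, Cyp26b1, Tac2, Prkcd, Crh, Wfs1 and Slc17a6) passed the filter. Some marker lists moved with the diet or with a single mouse. The mean level of 8 tested striatal medium spiny neuron markers was 9.45 to 9.81 in zinc diet mice and 8.21 to 8.54 in control mice. Of these genes, 8 of 8 were higher and not overlapping, against 13.7% of all genes tested that parted the diets in either direction. The mean of the 8 amygdala markers was 9.16 to 9.18 in zinc diet mice and 8.78 to 9.08 in control mice. Of these genes, 7 of 8 were higher and 4 of 8 did not overlap. The mean of 8 tested oligodendrocyte markers ranged from 9.84 to 10.5 against 9.36 to 9.98, highest in zinc diet replicate 7. Control replicate 9 stood apart in 4 tested choroid plexus markers, with a mean of 9.28 against 5.62 to 6.56 in the other 5 mice. HDAC gene values, each on the brightest probe set, that moved by over 1.5 times without this mouse are therefore given without it as well. The other HDAC probe sets and the single partner genes are given with all 6 mice only, and some of them may also depend on this mouse. Astrocyte (6 genes), microglia (6), endothelial (5 tested of 7) and oligodendrocyte precursor (4) means overlapped between the diets. In that order, 2, 3, 4 and 0 genes were higher on average, and 0, 1, 0 and 2 genes did not overlap. The median log2 change of the precursor genes was -0.14.

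Differences between the diets were small in every member, and none passed the test across the whole table. Of the 17 probe sets, 14 had a mean log2 level of at least 4 over the 6 arrays and were tested among 22877 probe sets. In limma, 0 of the 14 passed an adjusted p of 0.05, against a background of 0 of 22877 (0%), and 1 of the 14 had an unadjusted p under 0.05, against 6.38% of all probe sets. Adjusted p-values of the 14 ran from 0.75 to 0.996. Log2 changes (zinc diet minus control diet) ran from -0.21 for Hdac6 to 0.19 for Hdac8, and the 95% intervals ran from -0.45 (Hdac5) at the lowest to 0.55 (Hdac8) at the highest. On the linear scale those outermost bounds are 0.73 and 1.47 times the control level. A p above the threshold does not show that levels were equal, and these bounds give the sizes of change that the 3 mice per diet leave possible. In 3 of the 14 probe sets (21.4%) the 3 zinc diet mice did not overlap the 3 control mice, against 12% of all probe sets: 1 of Hdac2 was higher (background 6.66%), and 1 each of Hdac4 and Hdac6 were lower (background 5.33%).

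**Figure D1:**
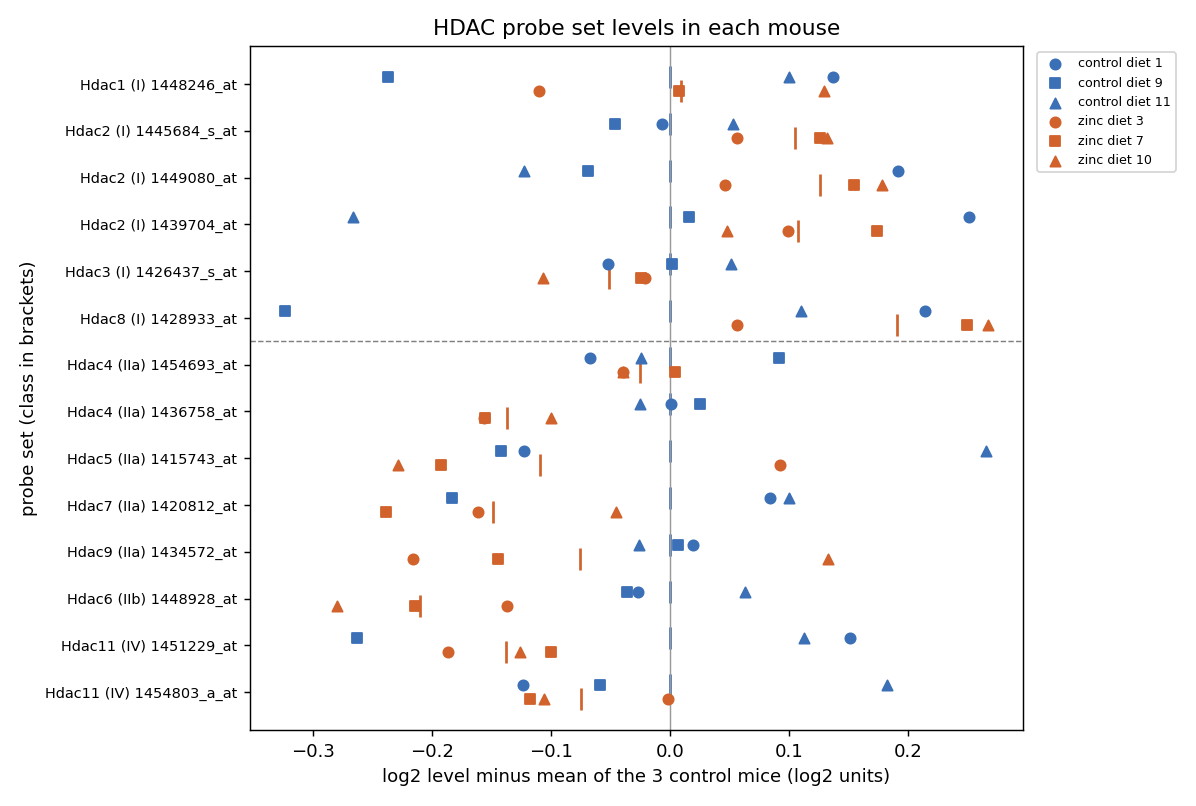
Levels of the 14 tested HDAC probe sets in each mouse, as log2 level minus the mean of the 3 control mice (x axis, log2 units), with each probe set and its class on the y axis. Blue symbols are control mice, orange symbols are zinc diet mice, and vertical ticks are diet means. The dashed line parts class I (above) from classes II and IV (below), where the orange ticks all lie left of 0.

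The promoter windows of Hdac2, Hdac4 and Hdac6 are shown because these were the genes with a tested probe set that parted the diets. Each is the RefSeq window of 250 bases before to 50 bases after a gene start, in build GRCm38.p6, read 5′ to 3′ on the strand of the gene. Capitals mark a GC box core (GGGCGG on either strand, the kind of site that SP1 binds) or a metal response element core (TGCACNC or TGCGCNC on either strand, the kind that the zinc-sensing factor MTF1 binds), and the motifs can overlap. The windows are chr10:36974294-36974593 on the plus strand for Hdac2, chr1:92180292-92180591 on the minus strand for Hdac4 and chrX:7947840-7948139 on the minus strand for Hdac6.
Hdac2: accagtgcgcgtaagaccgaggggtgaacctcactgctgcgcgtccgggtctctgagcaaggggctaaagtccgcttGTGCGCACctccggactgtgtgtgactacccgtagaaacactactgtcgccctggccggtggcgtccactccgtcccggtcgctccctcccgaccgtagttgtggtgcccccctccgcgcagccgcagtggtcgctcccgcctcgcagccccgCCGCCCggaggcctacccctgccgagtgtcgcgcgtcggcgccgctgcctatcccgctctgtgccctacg
Hdac4: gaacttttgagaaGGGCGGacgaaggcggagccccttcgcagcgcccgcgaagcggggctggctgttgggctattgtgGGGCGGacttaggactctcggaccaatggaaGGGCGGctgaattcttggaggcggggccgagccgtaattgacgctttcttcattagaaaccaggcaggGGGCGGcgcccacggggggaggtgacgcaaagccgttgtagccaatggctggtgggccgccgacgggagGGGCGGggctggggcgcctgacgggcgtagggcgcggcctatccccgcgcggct
Hdac6: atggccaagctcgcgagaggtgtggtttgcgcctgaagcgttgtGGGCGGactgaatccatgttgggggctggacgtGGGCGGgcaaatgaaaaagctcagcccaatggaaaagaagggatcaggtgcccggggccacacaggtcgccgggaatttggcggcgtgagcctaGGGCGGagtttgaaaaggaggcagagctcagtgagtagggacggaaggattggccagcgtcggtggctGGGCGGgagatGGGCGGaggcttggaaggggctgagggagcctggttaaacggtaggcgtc
The Hdac4 and Hdac6 windows each held 5 GC box cores and no metal response element core. The Hdac2 window held 1 GC box core and 2 metal response element matches, which are the same overlapping letters read on the 2 strands. Among all 32851 windows of the same length, 35.7% held a GC box core and 25.7% a metal response element core. RefSeq windows were matched for 8 of the 10 member genes (12 windows), of which 6 genes had a GC box core and 3 had a metal response element core in a window. These are counts of genes with a match in any of their windows, so they cannot be set against the shares of single windows. GC content was 69.7%, 68% and 62% in the Hdac2, Hdac4 and Hdac6 windows, against a median of 52.7% over all windows. Such a match describes letters in a window and was not tied to any level here.

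Among class I genes, Hdac2 was slightly higher in zinc diet mice on each of its 3 probe sets. HDAC2 is a catalytic subunit of the Sin3, NuRD and CoREST complexes. Its brightest probe set (1445684_s_at) read 11.51, 11.47 and 11.57 in control replicates 1, 9 and 11, and 11.58, 11.65 and 11.65 in zinc diet replicates 3, 7 and 10. The diets did not overlap, but the gap between control replicate 11 and zinc diet replicate 3 was narrower than the spread within either diet. The difference was 0.10 ± 0.071 (SE, 95% interval -0.064 to 0.27, limma adjusted p = 0.86), or 1.08-fold. The ending _s_at marks a design that can also match related transcripts. The other probe sets gave 0.13 ± 0.10 (1449080_at, adjusted p = 0.88) and 0.11 ± 0.13 (1439704_at, adjusted p = 0.93, limma), and on both the diets overlapped because control replicate 1 was the highest of all 6 mice. Of the 3, 1439704_at lay close to the filter, with a mean of 4.46.

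Hdac1, the close partner of HDAC2 in the same complexes, showed a mean difference near 0. Its only probe set read 7.14, 6.77 and 7.11 in control replicates 1, 9 and 11, and 6.90, 7.02 and 7.14 in zinc diet replicates 3, 7 and 10. The zinc diet values lay wholly inside the control range, and control replicate 9 was the lowest mouse. The difference was 0.0090 ± 0.12 (SE, 95% interval -0.29 to 0.30, limma adjusted p = 0.996). Without control replicate 9 it was -0.11, without zinc diet replicate 10 it was -0.051, and without control replicates 1 or 11 or zinc diet replicate 3 it was 0.059 to 0.078, so its sign is not settled.

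Hdac3, the catalytic subunit of NCoR complexes, varied little between mice and was the only class I gene that was lower on average. It read 10.11, 10.16 and 10.21 in control replicates 1, 9 and 11 and 10.14, 10.13 and 10.05 in zinc diet replicates 3, 7 and 10. The diets overlapped, and the difference was -0.051 ± 0.072 (SE, limma adjusted p = 0.94). Leaving out control replicate 1 or 11 gave -0.077 and -0.026, and leaving out zinc diet replicate 10 gave -0.023. Its 95% interval of -0.22 to 0.12 is among the narrowest of the members. The probe set is also an _s_at design.

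Hdac8, which is known for deacetylating the cohesin subunit SMC3, had the highest mean difference of the 14 probe sets and the widest spread. It was dim, at 4.85, 4.31 and 4.74 in control replicates 1, 9 and 11 and 4.69, 4.88 and 4.90 in zinc diet replicates 3, 7 and 10. Control replicate 9 was again the lowest mouse, and the diets overlapped. The difference was 0.19 ± 0.15 (SE, 95% interval -0.17 to 0.55, limma adjusted p = 0.88). Without control replicate 9 it was 0.029, and without control replicate 1 it was 0.30. Control replicate 9 was also the mouse high in choroid plexus markers, and the part of that difference in the Hdac1 and Hdac8 values was not tested.

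In class IIa, all 4 genes were lower on average in zinc diet mice on all 5 tested probe sets, and each 95% interval held 0. Hdac4, a repressor of MEF2 known for a role in memory, was tested on a pair of probe sets. On 1436758_at it read 7.63, 7.65 and 7.60 in control replicates 1, 9 and 11 and 7.47, 7.47 and 7.53 in zinc diet replicates 3, 7 and 10. The diets did not overlap, and the gap was wider than the SD of either diet (0.025 and 0.032, n = 3 each). The difference was -0.14 ± 0.067 (SE, 95% interval -0.30 to 0.023, limma adjusted p = 0.81), or 1.10-fold lower. Of all probe sets tested, 98.4% had a wider residual spread than this one, and limma's moderated SE allows for a chance low spread. The brighter probe set of Hdac4, 1454693_at, did not repeat the gap. It read 8.84, 9.003 and 8.89 against 8.87, 8.92 and 8.87 in the same order of mice, a difference of -0.025 ± 0.075 (SE, limma adjusted p = 0.98), which was 0.021 without control replicate 9. Leaving out control replicate 1 gave -0.059, and leaving out zinc diet replicate 7 gave -0.040.

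Hdac5, a further class IIa repressor of MEF2, varied between mice of the same diet more than it differed between diets. It read 8.22, 8.20 and 8.61 in control replicates 1, 9 and 11 and 8.44, 8.15 and 8.11 in zinc diet replicates 3, 7 and 10. The diets overlapped, with 1 high mouse in each. The difference was -0.11 ± 0.14 (SE, 95% interval -0.45 to 0.23, limma adjusted p = 0.93), and without control replicates 1, 9 or 11 it was -0.17, -0.18 and 0.023. It was -0.21, -0.068 and -0.050 without zinc diet replicates 3, 7 and 10.

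Hdac7, known mostly from endothelium and developing T cells, was dim. Its tested probe set, 1420812_at, read 4.68, 4.42 and 4.70 in control replicates 1, 9 and 11 and 4.44, 4.36 and 4.55 in zinc diet replicates 3, 7 and 10. The diets overlapped through control replicate 9, and the difference was -0.15 ± 0.11 (SE, limma adjusted p = 0.87). Without control replicate 9 it was -0.24, and without control replicate 11 it was -0.099. The 5 tested endothelial markers overlapped between the diets, at 6.46 to 6.63 in zinc diet mice and 6.34 to 6.62 in control mice. Hdac9, the remaining class IIa gene, read 9.61, 9.60 and 9.56 in control mice and 9.37, 9.44 and 9.72 in zinc diet mice, again in order of replicate number. The control mice agreed closely (SD 0.023), while zinc diet replicate 10 lay above all of them and the other zinc diet mice below (SD 0.18, n = 3 each). The difference was -0.076 ± 0.10 (SE, limma adjusted p = 0.94), and it was -0.0061, -0.042 and -0.18 without zinc diet replicates 3, 7 and 10.

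Hdac6, the class IIb enzyme known as the cytoplasmic deacetylase of alpha-tubulin, had the lowest log2 change of the 14 probe sets. It read 8.99, 8.98 and 9.08 in control replicates 1, 9 and 11 and 8.88, 8.80 and 8.73 in zinc diet replicates 3, 7 and 10. Every zinc diet mouse lay below every control mouse, with means of 8.80 ± 0.072 and 9.01 ± 0.055 (SD, n = 3 each). The difference was -0.21 ± 0.076 (SE, 95% interval -0.39 to -0.029), or 1.16-fold lower. Among the 14 tested probe sets it was the only one with an unadjusted p under 0.05 (limma, 0.029). It did not pass over all probe sets (limma adjusted p = 0.75). Leaving out a mouse kept the difference between -0.25 and -0.18, and the unadjusted limma p rose above the threshold without control replicate 11 (0.087), zinc diet replicate 7 (0.081) or zinc diet replicate 10 (0.090). In whole tissue, fewer cells of a type and less RNA per cell cannot be told apart. The striatal and amygdala marker lists given above parted the diets in the opposite direction, and their part in the Hdac6 value was not tested.

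Hdac11, the only class IV enzyme, which removes fatty acyl groups as well as acetyl groups, was lower on average on both probe sets. On 1451229_at it read 11.06, 10.64 and 11.02 in control replicates 1, 9 and 11 and 10.72, 10.81 and 10.78 in zinc diet replicates 3, 7 and 10. The zinc diet mice agreed closely and lay below control replicates 1 and 11 but above control replicate 9. The difference was -0.14 ± 0.12 (SE, limma adjusted p = 0.90), while without control replicates 1, 9 or 11 it was -0.062, -0.27 and -0.082. On 1454803_a_at the difference was -0.075 ± 0.10 (SE, limma adjusted p = 0.93). Hdac11 is abundant in oligodendrocytes, and the 8 tested markers of those cells were all higher on average in zinc diet mice. The ranges of their mean level overlapped, and 1 of the 8 genes parted the diets, against 13.7% of all genes tested. These markers were not tested against the Hdac11 values.

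**Figure D2:**
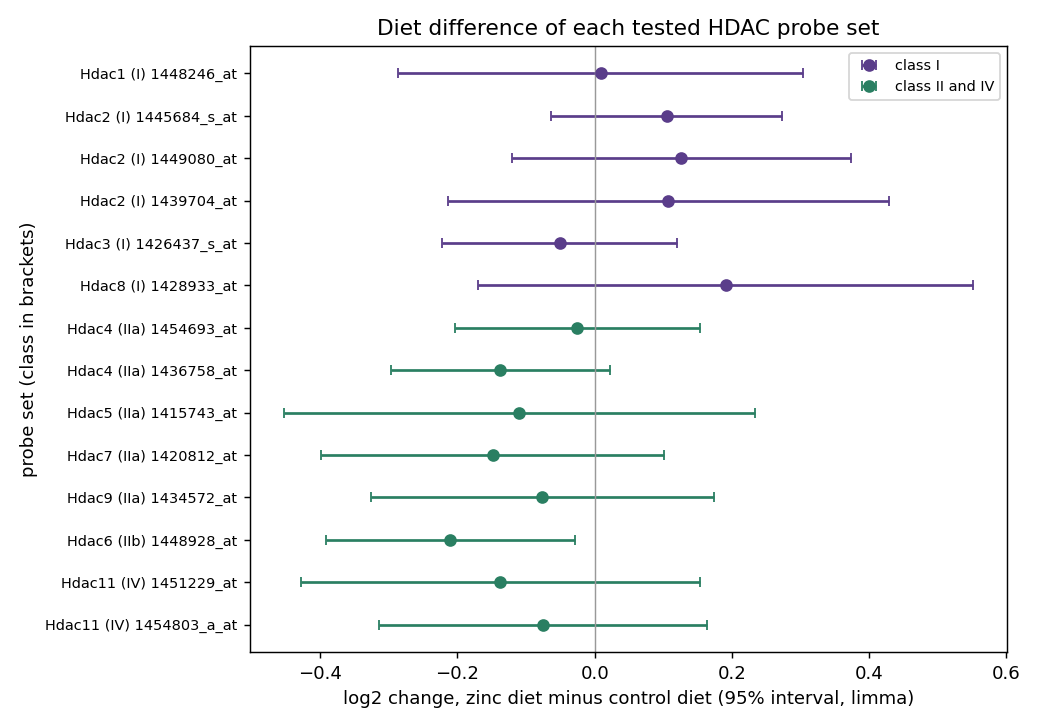
Log2 change of each tested HDAC probe set, zinc diet minus control diet (x axis), with its 95% interval from limma. Purple is class I and green is classes II and IV (y axis, class in brackets), and only the interval of Hdac6 lies wholly on one side of 0, from -0.39 to -0.029.

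The remaining 3 probe sets fell under the filter and were fitted only in the table without a filter. The second Hdac7 probe set, 1420813_at, lay just under it with a mean of 3.997, and read 4.18, 4.01 and 4.10 in control mice and 3.85, 3.94 and 3.90 in zinc diet mice. The diets did not overlap, and the difference of -0.20 ± 0.080 (SE, limma adjusted p = 0.92) went the same way as that of the tested Hdac7 probe set. The dimmest Hdac4 probe set, 1447566_at (mean 3.98), gave -0.11 ± 0.14, and a second Hdac9 probe set, 1421306_a_at (mean 2.75), gave -0.026 ± 0.083. Levels this low cannot be told from background in these values.

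With all 6 mice, the class II and IV genes were all lower on average, whereas the class I genes were mixed. Of the 4 class I genes, each represented by its brightest probe set, 3 were higher and 1 lower on average, with a median log2 change of 0.057. Of the 6 class II and IV genes, 0 were higher and 6 lower, with a median of -0.12. Over all 11221 genes tested the median was 0.012, and 45.5% were lower. The Hdac1 value counted among the 3 lies below that median, and without control replicate 9 only 2 of the 4 class I genes were higher. The same count of 2 was found without zinc diet replicate 10 and under quantile normalization. Of the 6 class II and IV genes, 5 were lower without control replicate 9 and 5 without control replicate 11. These are counts of signs and not of changed genes, since none of the 10 passed the test. The diets did not overlap in 2 of the 10 genes (Hdac2 and Hdac6), against 13.7% of all genes.

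Averaged within each mouse and set against the control mean, class I was at 0.073, -0.15 and 0.078 in control replicates 1, 9 and 11 and at -0.0046, 0.089 and 0.11 in zinc diet replicates 3, 7 and 10. The diets overlapped, with control replicate 9 lowest. Classes II and IV together were at 0.0062, -0.088 and 0.082 in control mice and at -0.11, -0.15 and -0.098 in zinc diet mice. Every zinc diet mouse lay below every control mouse, by 0.010 at the nearest pair. The class I mean minus the class II and IV mean was at 0.067, -0.063 and -0.0033 in control mice and at 0.10, 0.24 and 0.20 in zinc diet mice, a mean difference of 0.18 with SDs of 0.065 in control and 0.070 in zinc diet mice (n = 3 each). The nearest pair, control replicate 1 and zinc diet replicate 3, differed by less than either SD. No p is given for these averages, because the genes and classes were chosen with earlier results of these data known.

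**Figure D3:**
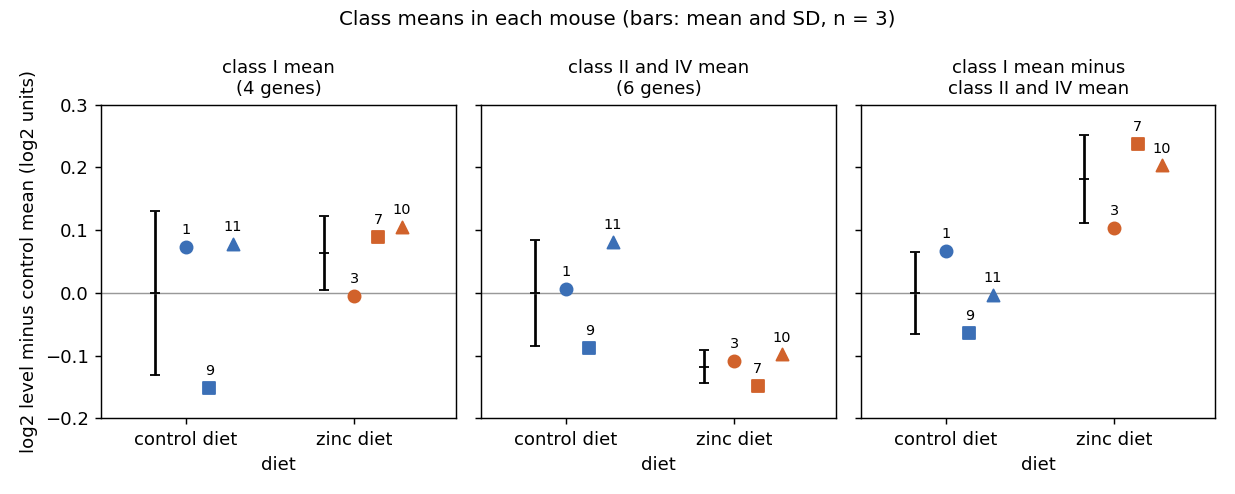
Class means in each mouse relative to the control mean (y axis, log2 units) for the 4 class I genes, the 6 class II and IV genes, and the difference between both. Numbers are the replicate numbers of the mice and bars are the mean and SD of 3 mice; in the right panel the zinc diet mice lie at 0.10 to 0.24 and the control mice at -0.063 to 0.067.

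The class I median changed sign among the fits that left out a mouse. The contrast between the classes could not, because every zinc diet mouse lay above every control mouse on it. Without control replicate 9 the median of class II and IV genes was -0.20 and that of class I genes -0.011, and the class I mean minus the class II and IV mean was 0.15. Over those 6 fits, that difference ranged from 0.15 to 0.22. The class I median ranged from -0.011 to 0.099 and the class II and IV median from -0.20 to -0.085 over the same fits. With the filter raised to 6, which left out the dim Hdac7 and Hdac8, the class difference was 0.13 and the class I median 0.0090. Members also differed in which mouse was extreme: control replicate 9 was lowest in 4 of the 14 probe sets, 3 of them of class I, and control replicate 11 was highest in 5.

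Transcripts of the proteins that class I enzymes work with showed no shared shift. The corepressor list held 30 genes of the Sin3, NuRD, CoREST and NCoR complexes, of which 27 were tested and the others were not analysed here. On average 13 were higher and 14 lower, with a median log2 change of -0.010, and 0 passed the adjusted threshold in limma (2 at an unadjusted p under 0.05, against 7.04% of all genes tested). The diets did not overlap in 3 of the 27 (11.1%, against 13.7% of genes). Brms1, a subunit of Sin3 complexes, read 6.17, 6.38 and 6.47 in control replicates 1, 9 and 11 and 6.05, 5.99 and 6.14 in zinc diet replicates 3, 7 and 10 (-0.28 ± 0.10 SE, limma adjusted p = 0.74), while its second probe set gave -0.015. Chd3, a remodelling helicase of NuRD, read 10.52, 10.50 and 10.84 against 10.35, 10.38 and 10.30 (-0.28 ± 0.11 SE, limma adjusted p = 0.77). In the opposite direction, Mbd2, the NuRD subunit that binds methylated DNA, read 7.70, 7.87 and 8.13 against 8.14, 8.16 and 8.24 (0.28 ± 0.12 SE, limma adjusted p = 0.78), with 0.17 on its second probe set. Chd3 and Mbd2, both of NuRD, lay near opposite ends of the list.

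Transcripts of the kinases, 14-3-3 proteins and MEF2 factors tied to class IIa enzymes had a median change near 0, with more genes higher than lower. Of 24 genes written, 22 were tested (Mef2b and Sik1 fell under the filter), and the median was 0.023. On average 15 were higher and 7 lower (31.8% lower, against 45.5% of all genes). The list mean was 0.056 higher in zinc diet mice, with overlap (SD 0.045 in control and 0.051 in zinc diet mice). In limma 0 passed the adjusted threshold and 2 had an unadjusted p under 0.05, against 7.04% of all genes tested. The diets did not overlap in 5 of the 22 (22.7%, against 13.7% of genes), 3 higher and 2 lower. Prkd1, a protein kinase D that phosphorylates class IIa enzymes, had the largest difference of the list, at 8.05, 7.90 and 8.27 in control replicates 1, 9 and 11 and 8.21, 8.60 and 8.52 in zinc diet replicates 3, 7 and 10 (0.37 ± 0.14 SE, limma adjusted p = 0.76), and 0.44 on its second probe set, with overlap between the diets on the first. Camk4, the nuclear calmodulin kinase, read 10.67, 10.68 and 10.76 against 10.78, 10.96 and 11.10 (0.25 ± 0.099 SE, limma adjusted p = 0.78), with 0.18 on its second probe set.

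Camk2a, the major forebrain calmodulin kinase, had the lowest value of the list, with 12.05, 12.13 and 12.07 in control mice and 11.86, 11.89 and 11.99 in zinc diet mice (-0.17 ± 0.074 SE, limma adjusted p = 0.79), and its 4 other tested probe sets gave -0.26 to -0.028. Ywhah, which encodes 14-3-3 eta, was at -0.13 ± 0.071 (SE) with no overlap. Mef2a (0.080 ± 0.067) and Camk2g (0.092 ± 0.078) were higher without overlap, the latter by the narrowest of margins (11.677 in both control replicate 11 and zinc diet replicate 3 when rounded). The diets overlapped on the 4 other tested Mef2a probe sets (-0.092 to 0.10) and on the other Camk2g probe set (0.0079). The other MEF2 genes tested, Mef2c (-0.015 ± 0.087) and Mef2d (-0.019 ± 0.085), overlapped between the diets.

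**Figure D4:**
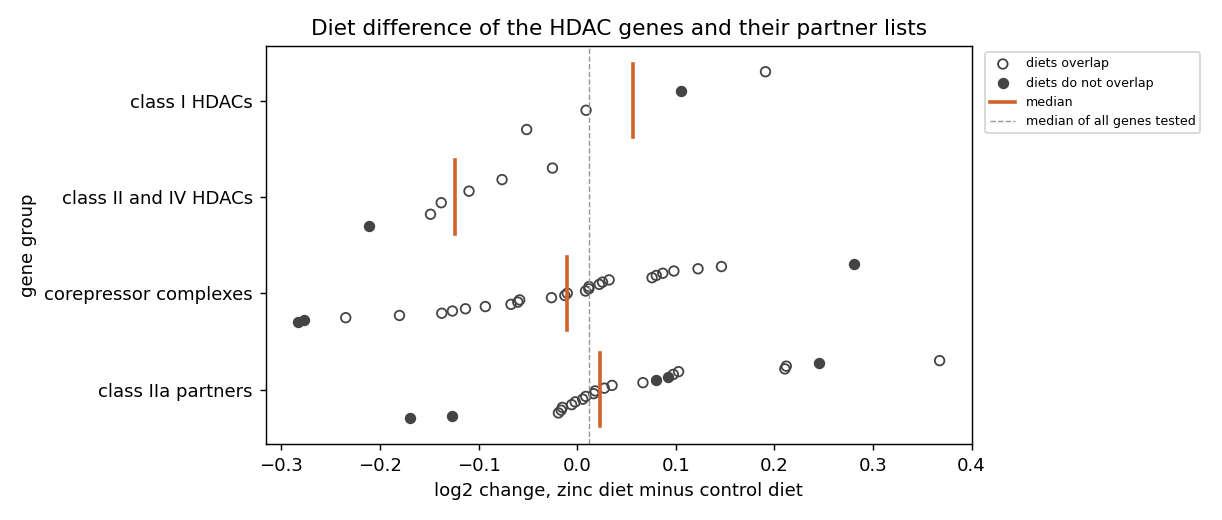
Log2 change, zinc diet minus control diet (x axis), of each HDAC gene and of each tested gene in both partner lists (y axis), by its brightest probe set. Filled circles are genes whose diets do not overlap, orange bars are group medians (0.057, -0.12, -0.010 and 0.023 from top to bottom), and the dashed line is the median of all genes tested, 0.012.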

How the data were processed

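RNA from 6 amygdalae (500 ng per sample) was hybridised to 1-colour arrays, per the labels' protocols. The values are log2 levels per probe set as the authors deposited them. The submitters' processing notes list R 2.15.1 and GCRMA 2.28.0 without saying what each was used for. That they are on a log2 scale was inferred from their range, and any centring is unstated. No detection call was at hand, so a low level may be background, where GCRMA can distort differences. Precision is limited by the 3 arrays per diet.

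The 64 control probe sets were left out. In the platform annotation 34958 probe sets had 1 gene symbol, 932 several and 9211 none, and all 17 HDAC probe sets matched a RefSeq gene of the same symbol. Probe sets with a mean of at least 4 (22877) were tested with limma 3.58.1 in R 4.3.3, using lmFit and eBayes with diet in the model and nothing else. P-values are two-sided and Benjamini-Hochberg adjusted over the 22877, and SEs and 95% intervals are moderated. In a simulation of this comparison with 22877 probe sets, the fit found 70% of 100 true changes of 1 log2 unit and 92% of 100 of 2 log2 units, with 8 false calls. Changes as small as those of the members (-0.21 to 0.19) were not simulated, so it gives no rate of finding them.

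Members and lists were chosen with earlier results of these data known. The rule named every member and, of each partner list, up to 8 genes whose diets did not overlap and the genes at its extremes; Mef2c and Mef2d were added after their values were seen. A gene was represented by its brightest probe set over all arrays. Separate litters or cages are not stated, so p-values measure only the spread between these mice. The alternatives dropped the filter or raised it to 6, applied quantile normalization or centred arrays on the median, used trend and robust eBayes or array weights, set values under 4 to 4, kept 1 probe set per gene or averaged a gene's probe sets, and left out each mouse.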

Additional observations from a re-analysis of the deposited data

How the results depend on the processing

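Over 15 alternatives, 143 of 148 HDAC gene values kept their direction and 0 of 148 passed the adjusted threshold in limma. Many of the 143 kept it by construction. Dropping the filter, raising it to 6 or keeping 1 probe set per gene could not alter the log2 change of a tested gene. Neither could trend and robust settings, nor raising low values to the filter level, which no brightest HDAC probe set fell under. Averaging a gene's probe sets left the change of a gene with 1 tested probe set as it was. Leaving out a mouse or weighting arrays could not turn the sign of Hdac2 or Hdac6, whose diets did not overlap. In all these cases direction was not tested. The sign of Hdac1 turned under quantile normalization (-0.0038), and leaving out a mouse gave -0.11 (control 9) to 0.078 for Hdac1, -0.059 to 0.021 (control 9) for Hdac4 and -0.21 to 0.023 (control 11) for Hdac5; Hdac1 was also negative, at -0.051, without zinc diet replicate 10, and the causes were not tested. HDAC probe sets past an unadjusted p of 0.05 numbered 2 without a filter and 0 to 3 when a mouse was left out, against 1. Past the adjusted threshold there were 1 of all probe sets with 1 probe set per gene, 2 with a mean of at least 6, 1 with the mean of probe sets and 3 with trend and robust settings, against 0. Past an unadjusted p of 0.05 there were 937 with 1 probe set per gene and 927 with the mean of probe sets (both test fewer features), 2345 with array weights, 2429 without a filter, and 853 to 2241 when a mouse was left out, against 1460. The class II and IV median ran from -0.20 to -0.085 when a mouse was left out, and from -0.16 to -0.11 under the other alternatives. The class I median ran from 0.0090 to 0.069 under those, and the class I mean minus the class II and IV mean from 0.13 to 0.21. Both were lowest with a mean of at least 6, which left out Hdac7 and Hdac8. No paired analysis was possible because the diets share no replicate number. The median of the corepressor list ran from -0.046 to 0.0020 and that of the class IIa partner list from 0.0022 to 0.065 over all alternatives.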
